A study of Homo sapiens with 8 samples.

Results

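The genes described here are 9 cell adhesion genes, the 4 members of the L1 family (L1CAM, CHL1, NRCAM and NFASC), the related NCAM1 and the 4 teneurins (TENM1, TENM2, TENM3 and TENM4). They were picked by symbol from the 26364 genes of the count table, with earlier results of these libraries known, so their levels and fold changes are given as a description and no p-value is printed for them. RNA was sequenced from a pair of stable clones of LN229, a human glioblastoma cell line. Clone D6 expressed Survivin, the product of BIRC5, fused to green fluorescent protein (Surv-GFP), and clone L2 expressed the same fusion with the substitutions L96A and L98A in its nuclear export sequence (SurvNESmut-GFP). Both clones came from transfection of the parental line with a plasmid and were kept under G418, and each construct was represented by 1 clone, so the construct and the clone cannot be told apart in any comparison between them. Temozolomide (TMZ), a methylating anticancer drug, was given to either clone at 50 µM for 48 h or omitted, and with 2 libraries each, lettered a and b, this made 4 groups. The question was how the RNA of these adhesion genes differed between the clones and upon TMZ.

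L1 family proteins and NCAM1 are cell surface molecules of the immunoglobulin superfamily that are best known from neurons and glia, where they mediate contact between cells, growth of axons and myelination. The cytoplasmic tails of the L1 family bind ankyrins, which anchor them to the spectrin skeleton. L1CAM is also known for its expression in many tumours, gliomas among them. Teneurins are large transmembrane proteins that bind latrophilins (ADGRL) and FLRT proteins on neighbouring cells and take part in forming synapses. NCAM1 can carry chains of polysialic acid, which weaken adhesion.

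The 8 libraries held 15826923 to 18861603 counts on genes, and 14201 genes had enough counts to be tested. Libraries of 1 group were alike (r of log2 CPM at least 0.9939 across genes), and the highest r between groups was 0.9858. Letters differed by more than counting error, most in exposed SurvNESmut-GFP (chi-square per degree of freedom 5.75, against 2.2 to 2.66 in the other groups). The fit shares its spread over the groups, so errors that involve exposed SurvNESmut-GFP may be too small. A figure legend of the study speaks of independent biological replicates measured in technical duplicates, while the table holds 2 libraries a group, and the sources used here do not say which of these the letters are. Errors and p-values therefore measure the spread between letters, which may be technical. BIRC5 RNA, which here includes the transgene, was found in every library and lay at 1133 ± 27.9 (SD, n = 2) CPM (counts scaled to a common library size) in untreated and 1984 ± 64.6 in exposed Surv-GFP, against 411 ± 5.22 in untreated and 258 ± 6.89 in exposed SurvNESmut-GFP. It was thus higher with TMZ in Surv-GFP and lower in SurvNESmut-GFP, and its part in the TMZ effects below was not tested. CDKN1A, the p53 target that encodes p21, was higher in every TMZ-exposed library than in the untreated libraries of its clone. Its rise was larger in Surv-GFP, from 81.9 ± 6.6 to 941 ± 47.8 CPM, than in SurvNESmut-GFP, from 118 ± 1.07 to 460 ± 44.6 CPM. Whether this bears on the TMZ effects below was not tested. Of 8 markers of glioma and astroglia, summed to 3871 to 6033 CPM, VIM and NES were abundant, whereas GFAP, the defining astrocyte protein, had a group mean of at most 0.626 CPM. Neuronal markers summed to 229 to 457 CPM with RBFOX3 at or near 0. Oligodendrocyte markers summed to 138 to 686 CPM, and endothelial and immune markers reached at most 0.867 and 0.252 CPM. The part of these markers in the results below was not tested.

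Windows before listed transcript starts are shown for the members whose RNA differed most between the clones, to place the genes. Whether a window acts as a promoter was not tested. Each is the 250 bases before a transcript start in RefSeq on GRCh38.p14, written in the direction of transcription, with the letters of the GC box GGGCGG, searched on both strands, in capitals. For a gene with several listed starts the first is shown, and the counts do not tell which start these cells used. A transcript of the GENCODE v29 annotation held the first 50 bases after the start, anywhere along its length, for L1CAM and NFASC. None did for TENM1 and TENM2. The match was not limited to the first bases of a transcript, so it cannot tell a start from an exon further in. All the starts shown are therefore uncertain.
L1CAM, chrX:153875945-153876194, minus strand: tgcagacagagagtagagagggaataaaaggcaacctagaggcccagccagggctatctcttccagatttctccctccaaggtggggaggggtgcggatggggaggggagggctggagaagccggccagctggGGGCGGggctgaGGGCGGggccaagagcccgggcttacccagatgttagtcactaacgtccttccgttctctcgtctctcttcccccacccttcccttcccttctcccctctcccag
NFASC, chr1:204828402-204828651, plus strand: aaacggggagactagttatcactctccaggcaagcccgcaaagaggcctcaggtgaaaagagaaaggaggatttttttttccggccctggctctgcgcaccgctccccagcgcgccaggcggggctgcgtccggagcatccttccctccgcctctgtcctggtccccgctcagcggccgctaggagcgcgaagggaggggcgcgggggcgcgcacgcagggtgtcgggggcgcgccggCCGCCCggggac
TENM1, chrX:125204313-125204562, minus strand: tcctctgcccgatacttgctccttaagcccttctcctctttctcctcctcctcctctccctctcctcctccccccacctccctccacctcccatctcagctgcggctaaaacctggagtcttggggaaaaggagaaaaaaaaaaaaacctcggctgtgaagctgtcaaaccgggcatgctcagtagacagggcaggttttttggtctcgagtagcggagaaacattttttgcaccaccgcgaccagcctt
TENM2, chr5:167072992-167073241, plus strand: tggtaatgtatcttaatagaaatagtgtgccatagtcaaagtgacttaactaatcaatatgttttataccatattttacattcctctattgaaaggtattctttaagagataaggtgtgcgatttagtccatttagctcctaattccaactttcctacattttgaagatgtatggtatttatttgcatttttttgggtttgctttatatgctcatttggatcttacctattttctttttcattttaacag
The 4 windows differed in base composition. The NFASC window held 27 CpG dinucleotides, the L1CAM and TENM1 windows held 8 each and the TENM2 window held 1, against a median of 11 over 35116 windows of the same length. The GC box was found 2 times in the L1CAM window and 1 time in the NFASC window, and it occurred in 42.6% of all windows. The letters TATAAA, searched on both strands, occurred 2 times in the TENM2 window and in 10.7% of all windows. In all, 8 members had 17 windows in the table, and NCAM1 had no entry. NRCAM and TENM3 had CpG-rich windows too, with 29 and 20 CpG in the window listed first.

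The clones differed strongly in this group of genes before any exposure to TMZ. L1CAM, TENM2 and CHL1 were higher in SurvNESmut-GFP and NFASC, TENM1 and NRCAM lower, while TENM3 was at a like level. By edgeR's quasi-likelihood F test at an adjusted p of 0.05, 3 of 8 tested members were called higher in untreated SurvNESmut-GFP than in untreated Surv-GFP, where 34.7% of all tested genes were called higher. A further 4 were called lower, where the background was 29.4%. TENM4 had too few counts to be tested. CHL1 and TENM2 passed the filter on low counts only through SurvNESmut-GFP, and NFASC only through Surv-GFP. Under TMZ, 4 members were called higher (background 34.5%) and 3 lower (background 34.7%). Because the members were chosen with these contrasts known, nothing is read from these counts. The median log2 difference over the tested members was -0.06 without TMZ, against 0.03 over all genes, since members far above and far below 0 were both present.

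**Figure D1:**
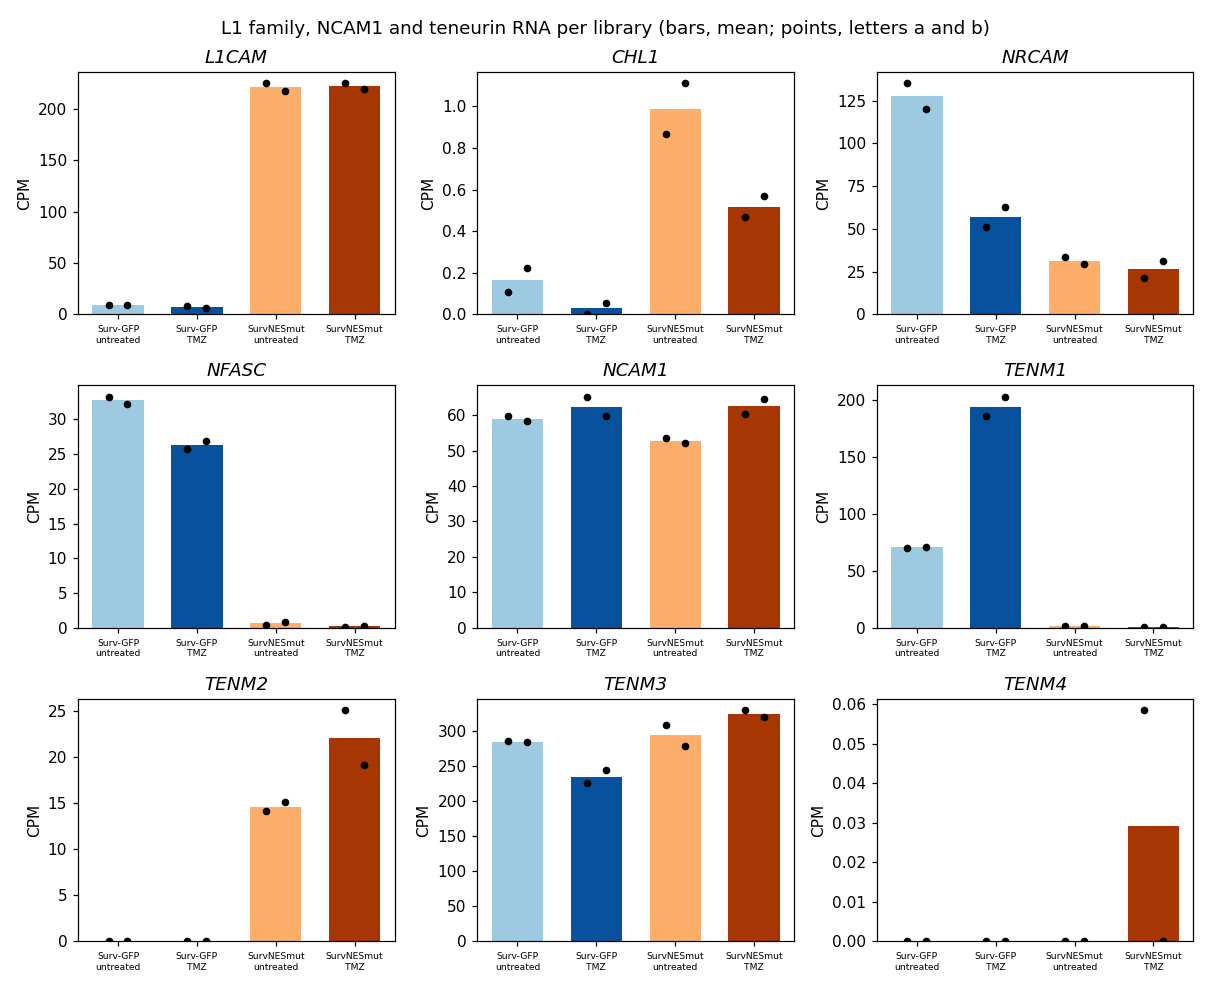
Normalized expression (CPM, linear axis from 0, scaled per gene) of the 9 members in the 4 groups. Bars are means of 2 libraries and points are letters a and b. L1CAM and TENM2 stand high only in the SurvNESmut-GFP groups, and NFASC and TENM1 only in the Surv-GFP groups.

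L1CAM, the founding member of its family, was the adhesion gene with the largest gain in counts in SurvNESmut-GFP. It had 9.0 and 9.49 CPM in untreated Surv-GFP (letters a and b) and 225 and 218 CPM in untreated SurvNESmut-GFP. The groups were far apart, with a log2 difference of 4.58 ± 0.074 (SE, n = 2 per group), or 23.9-fold. Here and below, the SE is the absolute log2 value divided by the square root of the test's F statistic. Where 1 group has few counts and the difference is large, it can be smaller than counting error. After TMZ, L1CAM had 8.34 and 6.60 CPM in Surv-GFP and 225 and 220 CPM in SurvNESmut-GFP, a 29.6-fold difference. In bulk RNA, a smaller share of cells that express a gene and less RNA per cell cannot be told apart, here and in all results below. TMZ hardly moved L1CAM within SurvNESmut-GFP, where the libraries of both groups overlapped and the log2 change was 0.01 ± 0.0521 (SE). In Surv-GFP the log2 change was -0.30 ± 0.114 (SE), which passed the threshold with all libraries but not without untreated letter a (-0.34), untreated letter b (-0.26) or TMZ letter b (-0.18), nor with only the groups compared in the fit (-0.30). In the GENCODE v29 annotation, 11.0% of the exon length of L1CAM is shared with 2 overlapping genes, 1 of them on the opposite strand, and the sources used here do not say whether the counting used strand.

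CHL1, the close homologue of L1CAM, was rare in all groups but also highest in SurvNESmut-GFP. Its counts were 2 and 4 in untreated Surv-GFP, 0 and 1 in TMZ-exposed Surv-GFP, 16 and 20 in untreated SurvNESmut-GFP and 8 and 9 in TMZ-exposed SurvNESmut-GFP. The SurvNESmut-GFP libraries lay above the Surv-GFP libraries in both conditions. Without TMZ the log2 difference between clones was 2.54 ± 0.522 (SE), or 5.82-fold. With TMZ, 17 against 1 counts gave a ratio of 18.6 (95% counting interval 2.92 to 778). The TMZ effects were not called in either clone, with a ratio of 5.93 in favour of untreated cells in Surv-GFP (95% counting interval 0.719 to 273) and a log2 change of -0.93 ± 0.414 (SE) in SurvNESmut-GFP. Such intervals cover counting error only, and 5.4% of the CHL1 exon length is shared with a pair of annotated antisense genes.

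NRCAM, which clusters sodium channels at nodes of Ranvier and guides axons, was lower in SurvNESmut-GFP. It had 135 and 120 CPM in untreated Surv-GFP and 33.5 and 29.2 CPM in untreated SurvNESmut-GFP, a log2 difference of -2.02 ± 0.118 (SE), or 4.07-fold. TMZ-exposed Surv-GFP had 51.0 and 62.7 CPM and TMZ-exposed SurvNESmut-GFP 21.4 and 31.3 CPM. NRCAM was thus the L1 family gene with the largest decrease in CPM upon TMZ in Surv-GFP, where both exposed libraries lay well below both untreated ones (log2 change -1.17 ± 0.11, SE, 2.25-fold). In SurvNESmut-GFP the exposed and untreated libraries overlapped, and the log2 change of -0.26 ± 0.141 (SE) was not called. It was called without exposed letter b (-0.55) and with no filter on low counts (-0.26), and it was 0.00 without exposed letter a. With NRCAM reduced in Surv-GFP, the clones lay closer under TMZ, at a log2 difference of -1.11 ± 0.131 (SE), or 2.16-fold.

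NFASC encodes neurofascin, which builds the axon initial segment in neurons and, as another isoform, the glial side of the paranodal junction. It showed the opposite distribution to L1CAM, with 33.2 and 32.2 CPM in untreated Surv-GFP against 0.488 and 0.889 CPM in untreated SurvNESmut-GFP. The log2 difference was -5.56 ± 0.166 (SE), or 47.2-fold. This SE rests on 25 counts in untreated SurvNESmut-GFP and is smaller than their counting error. With TMZ, NFASC had 25.7 and 26.9 CPM in Surv-GFP and 0.175 and 0.315 CPM in SurvNESmut-GFP, which is a 105-fold difference. TMZ-exposed libraries lay below untreated libraries in both clones. The log2 change was -0.32 ± 0.0866 (SE) in Surv-GFP. In SurvNESmut-GFP it was -1.47 ± 0.504 (SE) on 25 counts in untreated and 8 in exposed cells, and it was not called without untreated letter b (-0.99) or exposed letter a (-1.10). NFASC passed the filter on low counts only through Surv-GFP, so it was not tested with only the SurvNESmut-GFP groups in the fit. These counts per gene do not separate the neuronal from the glial isoform.

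NCAM1, the neural cell adhesion molecule, differed far less than the L1 family genes. It had 59.7 and 58.2 CPM in untreated Surv-GFP, 65.1 and 59.6 in TMZ-exposed Surv-GFP, 53.4 and 52.2 in untreated SurvNESmut-GFP and 60.4 and 64.5 in TMZ-exposed SurvNESmut-GFP. All 8 libraries lay within a narrow range. The log2 difference between clones was -0.16 ± 0.0614 (SE) without TMZ and 0.00 ± 0.0607 (SE) with TMZ, and the former was not called when any of the 4 untreated libraries was left out (-0.17 to -0.14) or with DESeq2 (-0.19). Upon TMZ the log2 change was 0.08 ± 0.0604 (SE) in Surv-GFP, where libraries overlapped, and 0.24 ± 0.0617 (SE) in SurvNESmut-GFP, where exposed libraries lay above untreated ones. The latter was not called without untreated letter b (0.22). An antisense gene and another gene on the opposite strand share 5.52% of its exon length.

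TENM1, an X-linked teneurin, was high in Surv-GFP and nearly absent from SurvNESmut-GFP. Untreated Surv-GFP had 70.6 and 70.8 CPM and untreated SurvNESmut-GFP 1.74 and 1.39 CPM, a log2 difference of -5.49 ± 0.114 (SE), or 45.0-fold. With TMZ the gap was wider: the exposed Surv-GFP libraries had 186 and 203 CPM, both far above the untreated ones, and exposed SurvNESmut-GFP had 0.818 and 1.20 CPM. The log2 difference with TMZ was -7.59 ± 0.112 (SE), or 193-fold. The SEs of both clone differences rest on 57 and 33 counts in SurvNESmut-GFP and are smaller than their counting error. In Surv-GFP the log2 change upon TMZ was 1.46 ± 0.0571 (SE), or 2.75-fold, and it was the largest called change of a member in that clone. In SurvNESmut-GFP the log2 change was -0.64 ± 0.286 (SE) on 57 and 33 counts, and it was not called. STAG2, on the opposite strand, overlaps 1.87% of the TENM1 exon length.

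TENM2 was the member with the sharpest contrast. No read was counted on it in any of the 4 Surv-GFP libraries, which allows up to 3 counts in a library, or 0.160 to 0.172 CPM. In SurvNESmut-GFP it had 14.2 and 15.1 CPM without TMZ and 25.1 and 19.2 CPM with TMZ. Against a floor of 3 counts over the group, TENM2 was at least 178-fold higher in SurvNESmut-GFP without TMZ and at least 268-fold higher with TMZ. Both exposed SurvNESmut-GFP libraries lay above both untreated ones, with a log2 change of 0.60 ± 0.126 (SE), or 1.52-fold. No change upon TMZ could be given for Surv-GFP.

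TENM3 was the teneurin with the most reads and the most even one across the 4 groups. It had 285 and 284 CPM in untreated Surv-GFP, 225 and 244 in TMZ-exposed Surv-GFP, 308 and 279 in untreated SurvNESmut-GFP and 329 and 320 in TMZ-exposed SurvNESmut-GFP. Without TMZ the libraries of the clones overlapped and the log2 difference was 0.05 ± 0.0558 (SE). Under TMZ the SurvNESmut-GFP libraries were the higher ones, by 0.47 ± 0.0562 (SE) on the log2 scale, or 1.39-fold. This gap came with a decrease in Surv-GFP (log2 change -0.28 ± 0.0562, SE) and a small increase in SurvNESmut-GFP (0.15 ± 0.0558, SE). The increase was not called with DESeq2 or its size factors (0.14), with only the groups compared (0.15), with the replicate letter in the model (0.15), or without untreated letter a (0.14), untreated letter b (0.14) or TMZ letter b (0.15) of Surv-GFP, or untreated letter b (0.07) or TMZ letter a (0.13) of SurvNESmut-GFP. TENM4, the remaining teneurin, had 1 count in all 8 libraries, in exposed SurvNESmut-GFP letter a, so no fold is given for it.

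**Figure D2:**
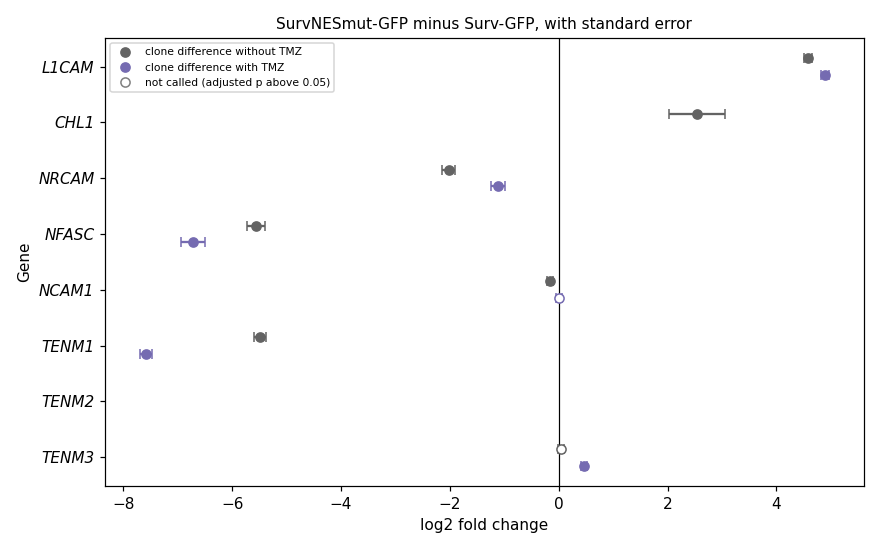
Log2 difference of SurvNESmut-GFP minus Surv-GFP for each tested member without (grey) and with TMZ (purple). Bars are standard errors derived from the edgeR F statistic (2 libraries per group). L1CAM lies near 4.6 and 4.9, NFASC and TENM1 below -5, and no value is drawn where a group had 3 counts or fewer (TENM2, and CHL1 with TMZ).

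Upon TMZ, TENM1 and NRCAM in Surv-GFP were the members with the largest fitted changes on more than 100 counts a group. In Surv-GFP 1 member was called higher (TENM1, background 30.1% of all genes) and 4 lower (L1CAM, NRCAM, NFASC and TENM3, background 28.9%). In SurvNESmut-GFP 3 were called higher (NCAM1, TENM2 and TENM3, background 18.6%) and 1 lower (NFASC, background 19.1%). As for the clone differences, nothing is read from these counts. The sizes differed widely: TENM1 and NRCAM in Surv-GFP changed by more than 1 on the log2 scale, whereas the median size of change over all genes was 0.32 there and 0.20 in SurvNESmut-GFP. Tested members had a median of -0.29 (Surv-GFP) and -0.13 (SurvNESmut-GFP), against 0.00 over all genes in each clone.

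The difference between the TMZ effects, that in SurvNESmut-GFP minus that in Surv-GFP, was called higher for 2 members (background 16.6%) and lower for 1 (background 20.2%). NRCAM fell in Surv-GFP and did not pass the test in SurvNESmut-GFP, which gave a difference of 0.91 ± 0.179 (SE). TENM3 fell in Surv-GFP and rose slightly in SurvNESmut-GFP, with a difference of 0.42 ± 0.0792 (SE). As given above, the rise was not called under several alternatives. TENM1, which was induced in Surv-GFP, had a difference of -2.10 ± 0.291 (SE). For L1CAM (0.31 ± 0.125, SE), NFASC (-1.16 ± 0.516, SE) and NCAM1 (0.16 ± 0.0863, SE) the difference was not called. That of NFASC was called without untreated letter a of SurvNESmut-GFP (-1.53). That of L1CAM was called without TMZ letter a of Surv-GFP (0.49), without TMZ letter b of SurvNESmut-GFP (0.33) and with library size alone (0.36).

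**Figure D3:**
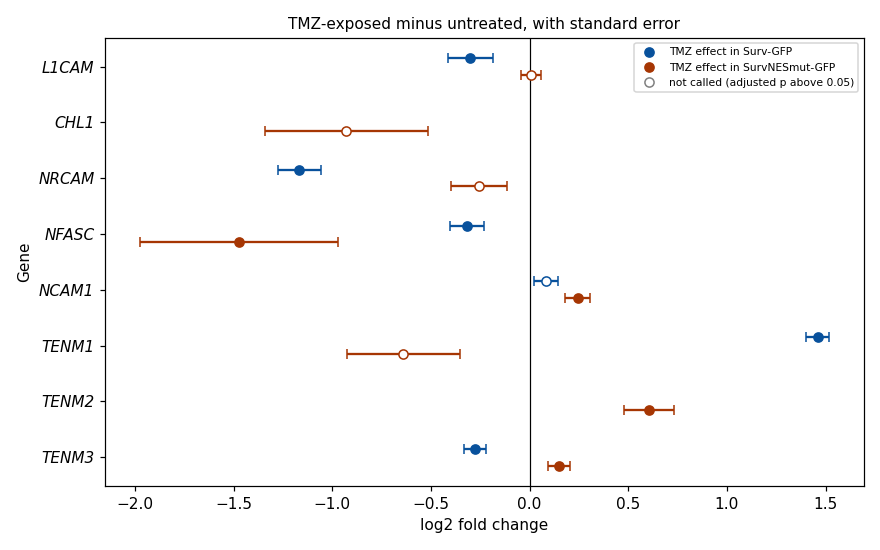
Log2 fold change upon TMZ of each tested member in Surv-GFP (blue) and SurvNESmut-GFP (brown), with standard errors derived from the edgeR F statistic. Open points did not pass an adjusted p of 0.05. TENM1 at 1.46 and NRCAM at -1.17 stand out in Surv-GFP, and no Surv-GFP value is drawn for TENM2 and CHL1, whose groups had 3 counts or fewer.

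Levels were compared between genes after division by the exon length of GENCODE v29, as CPM per kilobase. In untreated Surv-GFP the order was TENM3 (23.7 ± 0.0486, SD, n = 2), NRCAM (15.6 ± 1.30), TENM1 (5.48 ± 0.0108), NCAM1 (4.63 ± 0.0798), NFASC (1.54 ± 0.0328) and L1CAM (1.27 ± 0.0483), with CHL1 at 0.0139 and TENM2 and TENM4 at 0. TENM3 and NRCAM thus led in this clone and L1CAM was the lowest of those with more than a trace. In TMZ-exposed Surv-GFP TENM1 (15.1 ± 0.903) moved past NRCAM (6.94 ± 1.01) to the second place, and TENM3 still led with 19.6 ± 1.16. In untreated SurvNESmut-GFP L1CAM led with 30.4 ± 0.623, ahead of TENM3 (24.5 ± 1.70), NCAM1 (4.14 ± 0.0657), NRCAM (3.83 ± 0.365) and TENM2 (1.33 ± 0.0615). NCAM1 and NRCAM there differed by less than the spread of NRCAM. The same 5 genes led in exposed SurvNESmut-GFP, from L1CAM at 30.6 ± 0.545 to TENM2 at 2.01 ± 0.378, and TENM1, CHL1 and NFASC lay between 0.0782 and 0.0115. Dividing by the longest annotated transcript instead changed the place of 2 members in every group except exposed SurvNESmut-GFP, where it changed 0.

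**Figure D4:**
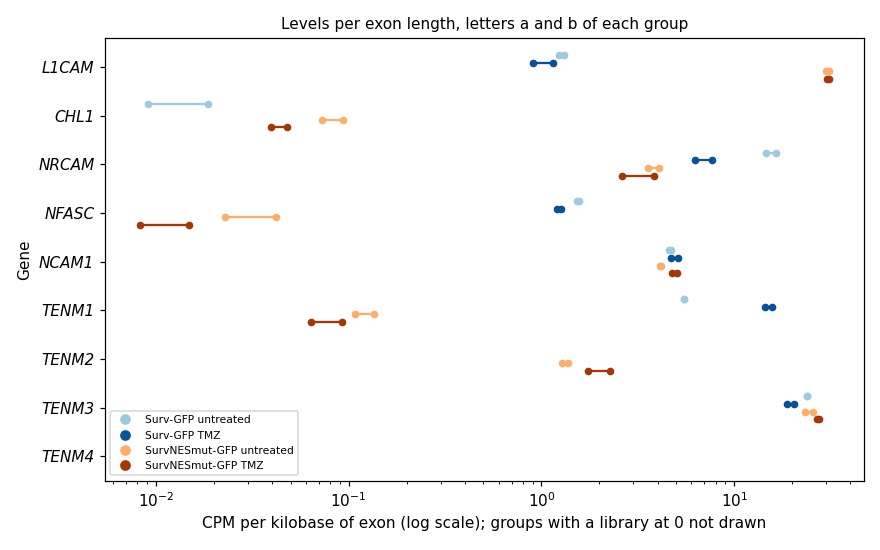
Levels per exon length (CPM per kilobase, logarithmic axis) of each member, with the 2 libraries of a group joined by a line. TENM3 and NCAM1 keep similar levels in the 4 groups, whereas L1CAM, NFASC and TENM1 change places between the clones. A group with a library at 0 is not drawn, so TENM4 has no point.

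Several genes had patterns across the 8 libraries very like those of the members, as measured by Pearson's r of log2 CPM. The libraries fall into the 2 clones, so a high r mostly says that a gene differs between clones in the same direction, and the values are a description only. The genes most like L1CAM were WHSC1 (0.9983) and GAGE2A (0.9982), and 154 genes had an r above 0.99 with it. For TENM2 they were ACSS3 (0.9996) and THBS1 (0.9993), for NFASC QPRT (0.9983) and GLB1L (0.9953), and for TENM1 CLCN3 (0.9982) and ARHGAP5 (0.9976). NRCAM was most like EDIL3 (0.9950) and MAGED2 (0.9946), and CHL1 most like BCAP31 (0.9911) and NFYB (0.9892). The even genes had looser matches: NCAM1 with LINC00326 (0.9360) and NAA35 (0.9314), and TENM3 with C19orf57 (0.9850) and TMEM145 (0.9802).

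The tested genes next to each member on its chromosome were examined for the difference between untreated clones. This look at neighbours was chosen after the values of the members were seen. RefSeq order on GRCh38.p14 was used for the 2 nearest tested genes on each side. Of 30 such neighbours, 7 were higher and 13 lower in untreated SurvNESmut-GFP and 10 were not called, where 34.7% of all genes were higher and 29.4% lower. Around L1CAM, the neighbours SSR4, PDZD4, ARHGAP4 and NAA10 had log2 differences between -1.24 and 0.06, none of them called higher. Around NFASC the 4 neighbours lay between -1.05 and 0.12, and 2 of them, PIK3C2B (-1.05) and MDM4 (-0.45), were called lower as NFASC was. Around TENM1 they lay between -0.50 and 0.14. OCRL (-0.50) was called lower as TENM1 was, and STAG2 (0.14), which overlaps TENM1 exons, was called higher. TENM2 had 1 neighbour that was higher, as it was. WWC1, which encodes the Hippo pathway protein KIBRA, was 3.62 ± 0.27 (SE) higher on the log2 scale in untreated SurvNESmut-GFP and 4.92 ± 0.301 (SE) with TMZ. WWC1 had only 8 counts over its lowest group. It may have passed the filter on low counts only through SurvNESmut-GFP, and these SEs may be smaller than counting error. The other 3 neighbours of TENM2 (HMMR, MAT2B and RARS) were lower in untreated SurvNESmut-GFP, with log2 differences of -0.60 to -0.36. DRD2, next to NCAM1, was higher by 1.99 ± 0.262 (SE), whereas NCAM1 itself was not. The neighbours named here were in part picked after their values were seen, so no p-value is printed for them.

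Partner genes, a list of 56 symbols written from general knowledge but with earlier results of these libraries known, were examined for the same comparisons. In the file 53 of them were found and 42 were tested. In Surv-GFP 13 were higher and 19 lower upon TMZ (background 30.1% and 28.9%), and in SurvNESmut-GFP 11 were higher and 15 lower (18.6% and 19.1%). Between untreated clones 17 were higher and 18 lower in SurvNESmut-GFP (34.7% and 29.4%), and between exposed clones 16 and 16 (34.5% and 34.7%). No test compared the list with other genes, and the genes named below are those with the smallest p of each group, so their p-values are not independent evidence. All adjusted p-values below are from edgeR's quasi-likelihood F test over all 14201 genes.

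Of the 6 tested partners that teneurins bind on other cells, 4 were lower in untreated SurvNESmut-GFP (background 29.4%) and 1, FLRT2, was higher (background 34.7%). The latrophilins ADGRL1, ADGRL2 and ADGRL3 were all lower in untreated SurvNESmut-GFP, most of all ADGRL3, at 1.81 against 16.6 CPM (log2 difference -3.19 ± 0.176, SE, adjusted p = 1.3e-10). FLRT3 was lower too (47.0 against 149 CPM, adjusted p = 9.3e-12). FLRT2 went the other way, with 615 counts in untreated SurvNESmut-GFP against 2 in untreated Surv-GFP, a ratio of 309 (95% counting interval 85.1 to 2554). Upon TMZ FLRT1 rose in both clones, by 1.44 ± 0.188 (SE, adjusted p = 5.3e-06) in Surv-GFP and 0.92 ± 0.209 (SE, adjusted p = 0.0024) in SurvNESmut-GFP on the log2 scale. FLRT3 rose as well, by 0.27 (adjusted p = 0.0025) and 0.65 (adjusted p = 6.9e-06). ADGRL2 fell by 0.50 in Surv-GFP (adjusted p = 9.6e-07).

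Of 20 tested cell surface partners of the L1 family and NCAM1, 11 were lower and 5 higher after TMZ in Surv-GFP (background 28.9% and 30.1%). In SurvNESmut-GFP 6 were lower and 3 higher (19.1% and 18.6%), and the counts were not compared between the clones by a test. Neuropilin 1 (NRP1), a semaphorin co-receptor that binds L1CAM, rose in Surv-GFP from 129 to 221 CPM (log2 change 0.77 ± 0.0542, SE, adjusted p = 3.6e-09), and so did the integrin subunit ITGA5 (0.73 ± 0.0548, SE, adjusted p = 8.2e-09). GFRA1, the GDNF co-receptor that can signal through NCAM1, fell by 1.01 (adjusted p = 2.7e-08) and the receptor tyrosine kinase FGFR3 fell by 1.39 (adjusted p = 1.8e-08). In SurvNESmut-GFP the proteoglycan VCAN rose from 407 to 636 CPM (adjusted p = 4.1e-08), whereas PTPRZ1, a receptor phosphatase that binds contactins and L1 family proteins, fell from 51.8 to 19.4 CPM (adjusted p = 2.5e-06). PTPRZ1 also differed strongly between untreated clones, at 51.8 against 392 CPM (log2 difference -2.92 ± 0.127, SE, adjusted p = 6.6e-12). NRP1 was the surface partner with the smallest p among those higher in untreated SurvNESmut-GFP (252 against 129 CPM, adjusted p = 1.6e-10).

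The ankyrins that bind L1 family tails did not move as a group. In SurvNESmut-GFP ANK1 rose upon TMZ from 33.8 to 91.6 CPM (log2 change 1.44 ± 0.0757, SE, adjusted p = 5.1e-10) and ANK2 from 10.8 to 27.7 CPM (1.36 ± 0.11, SE, adjusted p = 7.2e-08), while ANK3 fell by 0.55 (adjusted p = 3.1e-06). In Surv-GFP neither ANK1 (-0.06 ± 0.114, SE) nor ANK2 (-0.13 ± 0.103, SE) passed the test, while ANK3 fell there too, by 0.27 (adjusted p = 0.0013). The difference between the TMZ effects was 1.496 ± 0.137 (SE, adjusted p = 4.5e-07) for ANK1 and 1.49 ± 0.151 (SE, adjusted p = 1.4e-06) for ANK2. Ezrin (EZR), which links L1CAM to actin, rose in Surv-GFP by 0.46 ± 0.0573 (SE, adjusted p = 3.6e-06), and moesin (MSN) fell by 0.31 (adjusted p = 2.9e-05). Of the 12 tested cytoplasmic adaptors, 4 were higher and 3 lower upon TMZ in Surv-GFP, where 30.1% and 28.9% of all genes were, and 4 were higher and 5 lower in SurvNESmut-GFP, where 18.6% and 19.1% were.

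ST8SIA4, the polysialyltransferase that modifies NCAM1, was lower in SurvNESmut-GFP and lower after TMZ in both clones. Untreated cells had 18 and exposed cells 14.2 CPM in Surv-GFP (log2 change -0.34 ± 0.101, SE, adjusted p = 0.0087), and 6.73 and 3.50 CPM in SurvNESmut-GFP (-0.95 ± 0.157, SE, adjusted p = 0.00017). The other polysialyltransferase, ST8SIA2, was at or near 0 in all groups and was not tested. Of the proteases that shed L1CAM and other adhesion molecules, ADAM17 rose in Surv-GFP from 73.4 to 121 CPM (log2 change 0.72 ± 0.0533, SE, adjusted p = 7.3e-09) and was 138 CPM in untreated SurvNESmut-GFP (clone difference 0.91 ± 0.0529, SE, adjusted p = 2.5e-10). ADAM10 fell in both clones, by 0.53 (adjusted p = 2.5e-07) and 0.37 (adjusted p = 3.5e-05) on the log2 scale. BACE1, which cleaves CHL1, was lower in untreated SurvNESmut-GFP (94.1 against 159 CPM, adjusted p = 1.3e-09).

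**Figure D5:**
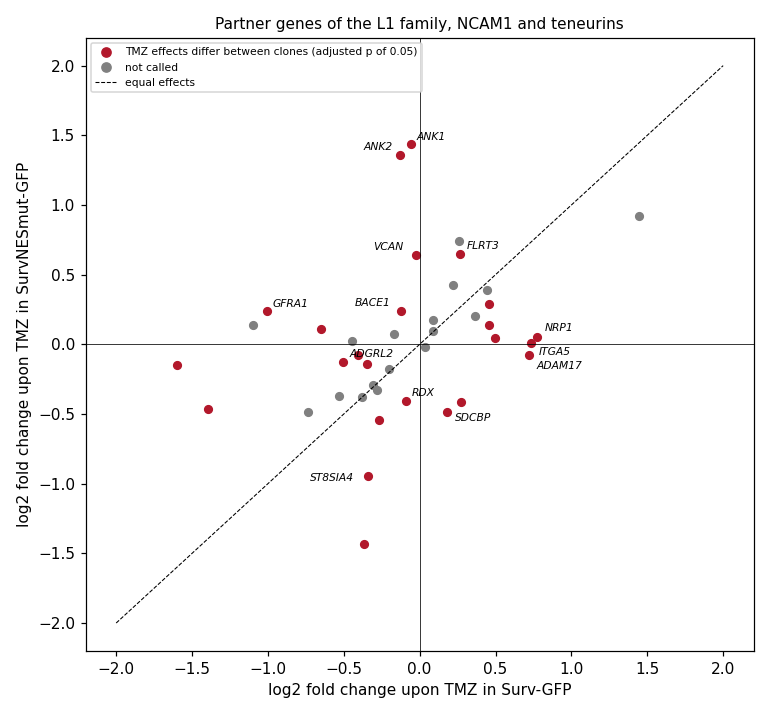
Log2 fold change upon TMZ of the 41 partner genes with a fitted value in every comparison, in Surv-GFP (horizontal axis) and SurvNESmut-GFP (vertical axis). Red points are the 24 genes whose TMZ effects differed between clones in the edgeR test at an adjusted p of 0.05. ANK1 and ANK2 lie high above the dashed line of equal effects, and ADAM17, NRP1 and ITGA5 lie to the right of it.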

How the data were processed

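Total RNA of 8 libraries was sequenced, and groups were taken from the sample labels. The count table, as deposited by the authors, holds unnormalized whole-number read counts per gene symbol for 26364 genes. Another 2 rows, labelled no feature and ambiguous, stand for reads not assigned to a gene. Together they were 12.5% to 15.5% of the reads and stayed out of all steps. Per the labels, the submitters' processing notes name STAR 2.5.0b, Cufflinks 2.2.1 and edgeR. Genome build, annotation, counting program and use of strand: not given in the sources used here. In all, 5 comparison tables of the authors hold edgeR output (F, p, FDR, mean log2 CPM and log2 fold change per gene) and were not used.

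The members and the gene lists were chosen with earlier results of these data known. The fits used edgeR 4.0.16 and limma 3.58.1 under R 4.3.3. All 8 libraries entered a model of 4 group means, with TMM factors (0.978 to 1.02), the edgeR filter on low counts by group (14201 genes left) and the legacy quasi-likelihood F test, two-sided, with Benjamini-Hochberg adjustment over all 14201 genes and a threshold of 0.05. CPM are counts scaled to the TMM-adjusted library sizes. Each SE of a log2 value is its absolute size divided by the square root of the F statistic. The common biological coefficient of variation was 4.09%. Members were named in every comparison. Of the partner genes, up to 2 per direction and group with the smallest p, an adjusted p of 0.05 and no overlap of libraries could be named, and the 2 genes with the highest r were named as most like a member. ADGRL1, ANK2 in Surv-GFP, ANK3 and the neighbours of members were in part named after their values were seen.

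Where a group had 0 counts, a floor of 3 counts over the group was used, and where it had 1 to 3 counts, a ratio with its 95% counting interval. Intervals and floors take in counting error alone, as molecules were not counted by identifiers. The fits were tested on simulated data. Alternatives were DESeq2's size factors, library size alone, no filter, DESeq2 1.42.0, the quasi-likelihood method of edgeR 4, the replicate letter as a block, only the groups compared, each library left out and, added after seeing the data, the longest transcript as length. Lengths came from GENCODE v29, and the windows before transcript starts and the gene order from RefSeq. A marker gene that was examined is not reported here.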

Additional observations from a re-analysis of the deposited data

Results flagged for a closer look

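The TMZ effect, on the log2 scale, differed between the clones for 3 of the 8 tested adhesion genes in the edgeR test of the difference, given as SurvNESmut-GFP minus Surv-GFP. The difference was positive for NRCAM (0.91), which fell less in SurvNESmut-GFP, and for TENM3 (0.42), and negative for TENM1 (-2.10). Over all genes the difference was called positive for 16.6% and negative for 20.2%. The adhesion genes were chosen with results of these libraries known, so nothing is read from the count.

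Among the named partner genes the difference was positive for ANK1 (1.496), ANK2 (1.49), GFRA1 (1.25), FGFR3 (0.93), VCAN (0.67), ADGRL2 (0.38), FLRT3 (0.38) and BACE1 (0.37). It was negative for PTPRZ1 (-1.06), ADAM17 (-0.80), NRP1 (-0.72), ITGA5 (-0.72), SDCBP (-0.67), ST8SIA4 (-0.61), EZR (-0.32), RDX (-0.31), ANK3 (-0.27) and PRNP (-0.17). A positive difference can mean a weaker fall in SurvNESmut-GFP, as for FGFR3 (log2 change -0.46 against -1.39 in Surv-GFP). A negative difference can mean a stronger fall there, as for PTPRZ1 (-1.43 against -0.37). These calls are from edgeR. Fewer partner genes were called lower with DESeq2, as given below, and which of these genes keep their call was not recorded. The causes were not tested.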

How the results depend on the processing

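Of 586 log2 fold changes of members refitted under the alternatives, 544 kept their direction and side of the threshold, 21 fell short of it and 6 newly passed. The other 15, from 5 comparisons of a member, changed sign or went to or from 0, and 0 of them passed the threshold before or after. They were near 0: NCAM1 between exposed clones (-0.08 to 0.00), TENM3 between untreated clones (-0.01 with library size alone, -0.02 without untreated letter a of SurvNESmut-GFP), L1CAM (-0.02 to -0.01) and NRCAM (0.00) upon TMZ in SurvNESmut-GFP, and TENM2, which has no counts, in Surv-GFP. In SurvNESmut-GFP, the number of members lower upon TMZ was 1, became 2 with no filter and 0 with only the groups compared, and ranged from 0 to 2 when a library was left out (0 without untreated letter b or exposed letter a, 2 without exposed letter b). The number higher was 3 and ranged from 1 (without untreated letter b) to 3. For the difference between TMZ effects, the members called lower ranged from 1 to 2 (2 without untreated letter a of SurvNESmut-GFP), and the partner genes called lower were 13 with edgeR and 7 with DESeq2. The cause was not tested. NFASC, the member lower upon TMZ in SurvNESmut-GFP, did not pass the filter with only the groups compared and was not tested there.

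Libraries with the same letter did not deviate together (r of deviations -0.07 to 0.08 over the pairs of groups), so letters were not taken to pair libraries. With the replicate letter as a block, TENM3 upon TMZ in SurvNESmut-GFP (0.15) was no longer called, and no other member's call changed. A library left out leaves its group with 1 library, assumed to vary like the others. Division by coding length was not run, as no protein table was used here. At this depth, CHL1, TENM4 and, in 1 clone each, NFASC, TENM1 and TENM2 rest on few counts.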
